A study of Mus musculus with 16 samples.

Results

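The genes described here are 10 members of the BCL2 family, which sets whether the outer membrane of the mitochondrion stays intact or is opened during apoptosis. They were taken by symbol from the gene count matrix, and they were 10 of the 22287 genes in it. All 10 were among the 12514 genes that passed the filter on low counts. The pro-survival members were Bcl2, Bcl2a1b, Bcl2a1d, Bcl2l1 and Mcl1. The BH3-only members were Bcl2l11, Pmaip1 and Bbc3, and the effectors were Bax and Bak1.

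The data were RNA-seq profiles of bone marrow-derived macrophages (BMDMs) from 8-week-old C57BL/6J mice, cultured for 7 days. Cells were grown with GM-CSF at 20 ng/ml (GM) or with M-CSF at 50 ng/ml (M), on tissue culture-treated dishes (TC) or on untreated polystyrene dishes (noTC). They were then kept without LPS (steady state) or given LPS, the cell wall endotoxin of Gram-negative bacteria, at 100 ng/ml for 3 h. Per the paper's methods, the cells without LPS received vehicle for the same 3 h. This gave 8 groups with 2 libraries each, 16 libraries in all, named by growth factor and dish (GM-TC or GM-noTC, and likewise M-TC or M-noTC) with the ending LPS for the challenged groups. The GM and M cells therefore differed in growth factor for the whole culture, and each library was a bulk sample of cells. The paper's methods also give a higher seeding density for GM than for M cells, which cannot be told apart from growth factor.

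Pro-survival proteins of the family hold the effectors BAX and BAK in check. BH3-only proteins are made or released upon stress, loss of growth factor or inflammatory signals, and they bind the pro-survival proteins or the effectors, after which BAX and BAK form pores and cytochrome c leaves the mitochondrion. In macrophages and neutrophils the pro-survival protein A1, made in the mouse from several near-identical Bcl2a1 genes, is known as an NF-κB target, and MCL1 is a short-lived protein that myeloid cells depend on.

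Libraries held 17527806 to 31458368 estimated counts. All 8 macrophage markers were above 3 counts in every group, with a summed level of 18057 to 45437 CPM (counts scaled to library size). Markers of neutrophils summed to 14.9 to 35.6 CPM in GM libraries against 0.452 to 1.81 CPM in M libraries, those of dendritic cells to 52.6 to 82.8 CPM against 1.27 to 3.66 CPM, and those of mast cells and basophils to 3.08 to 7.30 CPM against at most 0.208 CPM. Of the 10 neutrophil markers, 5 to 7 were above 3 counts in both libraries of each GM group and 0 to 2 in each M group, and of the 6 dendritic cell markers 4 to 6 and 3 to 4. Lymphocyte markers reached 2.58 CPM at most. All 10 heart muscle markers were above 3 counts in GM-TC (26.9 to 52.8 CPM) and in M-TC (52.4 to 90.03 CPM), and their sum was 0.633 CPM or lower elsewhere, which moves with dish at steady state and with LPS on TC. In the noTC libraries at steady state, genes that were silent in the TC libraries but abundant in the other groups were present at a share of 0.675% of the others' level in GM (15 genes) and 0.600% in M (19 genes), and no member was among these genes. The part of these markers and reads in the results was not tested beyond the subtraction given below. CPM values from here on are scaled by trimmed mean of M values (TMM). The TMM factors were 1.11 to 1.39 at steady state and 0.778 to 0.842 upon LPS, so that the median gene changed by -0.53 (GM-TC) to -0.83 (M-TC) on the log2 scale upon LPS when only library size was used, against -0.05 and -0.01 with TMM. In bulk samples, fewer cells of a type and less RNA per cell cannot be told apart.

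The Bcl2a1 genes are shown first because 2 of them, Bcl2a1b and Bcl2a1d, had the largest log2 fold changes of the members in M cells upon LPS, and because their upstream sequences are nearly the same. In GRCm38, Bcl2a1b lies at chr9:89199209-89207827 on the plus strand and Bcl2a1d at chr9:88723285-88731914 on the minus strand. The windows below, 76 bases each, come from the RefSeq promoter table (GRCm38.p6) and lie upstream of the genes as annotated in GENCODE vM21, and the capitals mark GAGGAA on the given strand and its reverse complement, a form of the purine-rich core bound by factors of the ETS family such as PU.1. Bcl2a1a and Bcl2a1c are copies outside the 10 members and are shown for comparison.
Bcl2a1a, chr9:88956780-88956855, plus strand: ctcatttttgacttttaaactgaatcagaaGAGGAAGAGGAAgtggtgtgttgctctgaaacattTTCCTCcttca
Bcl2a1b, chr9:89199089-89199164, plus strand: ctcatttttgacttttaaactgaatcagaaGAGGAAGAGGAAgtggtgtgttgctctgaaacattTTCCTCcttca
Bcl2a1c, chr9:114329885-114329960, plus strand: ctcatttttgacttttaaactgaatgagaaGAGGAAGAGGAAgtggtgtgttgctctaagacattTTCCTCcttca
Bcl2a1d, chr9:88731915-88731990, minus strand: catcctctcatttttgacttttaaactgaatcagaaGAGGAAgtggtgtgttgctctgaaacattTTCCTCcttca

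The windows of Bcl2a1a and Bcl2a1b were identical over 76 of 76 bases, and Bcl2a1c differed from them at 3 bases. Bcl2a1d held 1 copy of GAGGAA fewer: with that unit of 6 bases taken out of Bcl2a1b, the remaining 70 bases were identical to Bcl2a1d. Of 32851 promoters in the table, 7.18% held at least 1 GAGGAA on either strand in the 76 bases at the position of the Bcl2a1a window, 0.432% at least 2 and 0.0213% at least 3. The Bcl2a1a and Bcl2a1b windows end 44 bases before the first annotated start, that of Bcl2a1c 174 and that of Bcl2a1d 0. The shares are thus not for the same position in all 4 genes. Over the whole promoter entry (250 bases before to 50 after the start), GAGGAA was in 28.3% of all promoters and in 6 of the 11 entries of the family, the members other than Pmaip1 plus Bcl2a1a and Bcl2a1c. A κB consensus was in 4.51% of promoters and in those of Bbc3 and Bcl2l1, and in no Bcl2a1 entry. TGANTCA, looser than the AP-1 core (C or G in the middle), was in 7.81% of promoters and in those of Bcl2a1a, Bcl2a1b and Bcl2a1d. In the windows of these genes above, the match reads tgaatca, with A in the middle, and is thus not that core. The forkhead element GTAAACA was in 3.65% of promoters and in those of Bbc3 and Bcl2l11. For Bcl2l11, which rose in all 4 LPS comparisons, the element is in capitals in the window below. These matches describe the letters of the windows only.
Bcl2l11, chr2:128125788-128125847, plus strand: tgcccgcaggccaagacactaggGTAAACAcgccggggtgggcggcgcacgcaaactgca

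Upon LPS challenge, the Bcl2a1 genes, Bcl2l11 and Bak1 rose in all 4 cultures, and Bcl2 and Bbc3 fell in all 4. Of all genes tested, 25% rose and 22.7% fell in all 4. The values of Bak1 turned negative under library size alone. With an adjusted p under 0.05 (edgeR, Benjamini-Hochberg over all genes tested), 4 members rose and 3 fell in GM-TC, where 32.8% of all genes rose and 34.2% fell. In GM-noTC 5 rose and 3 fell (33.6% and 34% of all genes). For M-TC, 6 rose and 4 fell (37.6% and 36.4%), and for M-noTC 4 rose and 4 fell (36.4% and 35.9%). The number that also passed a fold of 2 was 4 in GM-TC (26% of all genes) and 4 in GM-noTC (25.8%), and for M cells 5 on TC (35.8%) and 5 on noTC (32.2%). The difference between these counts and the shares of all genes was not tested.

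**Figure D1:**
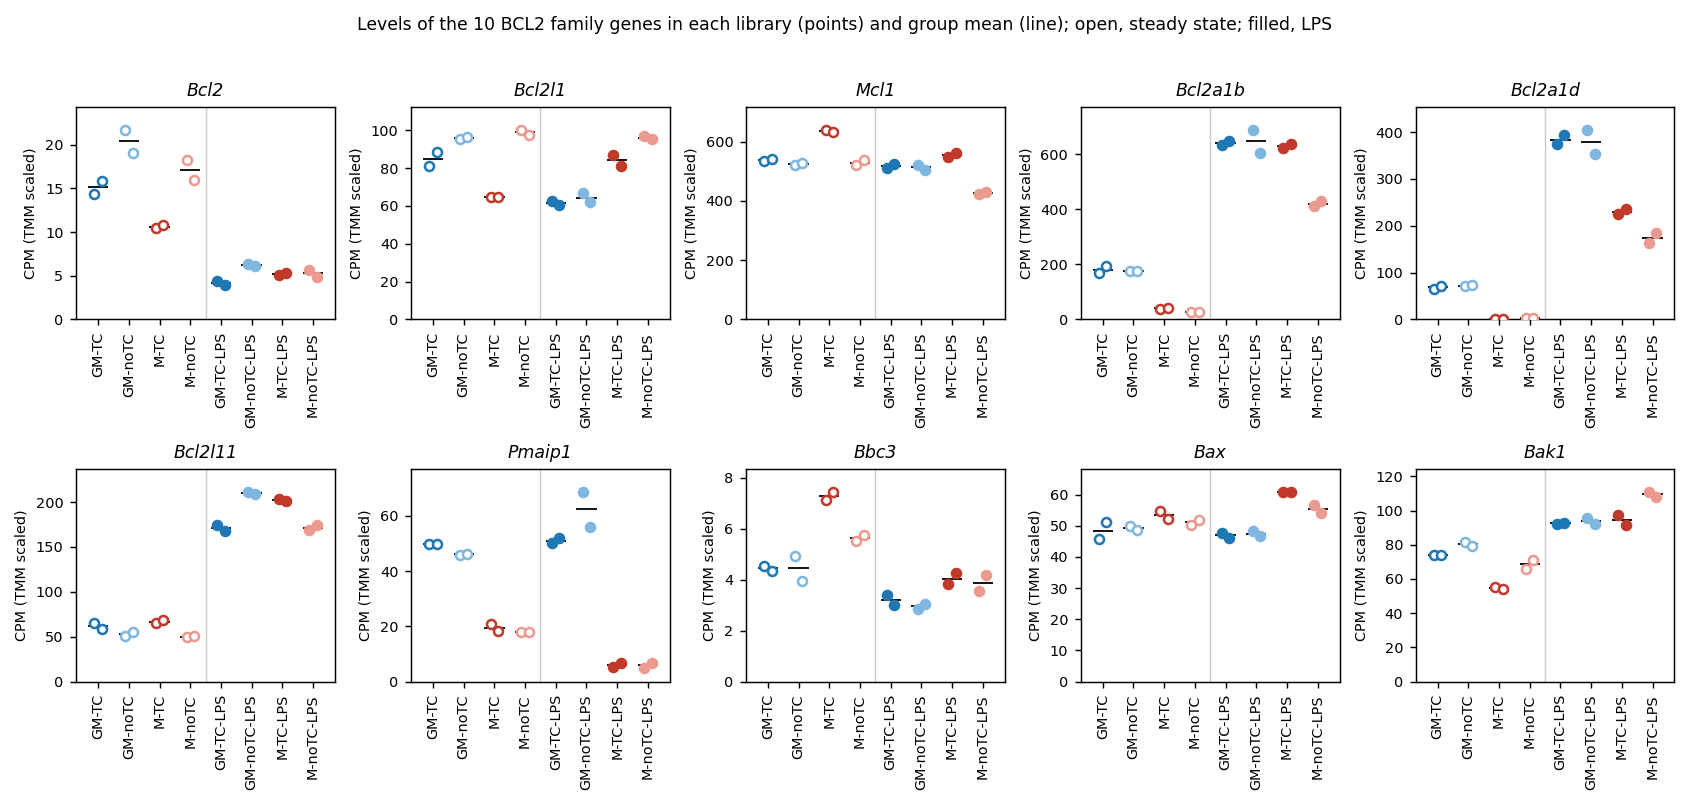
Level of each of the 10 genes (CPM, TMM scaled, linear axes from 0) in the 16 libraries, with 2 points per group and a line at the group mean, open points for steady state and filled points for LPS. Bcl2a1b and Bcl2a1d are low in M cells at steady state and high in all groups upon LPS, Bcl2 is lower upon LPS in every culture, and Pmaip1 separates GM from M cells.

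Bcl2a1b encodes A1-B, a pro-survival protein. Its level was 37.8 and 41.6 CPM in M-TC and 26.04 and 26.7 CPM in M-noTC. Upon LPS it was 622 and 636 CPM in M-TC-LPS and 411 and 431 CPM in M-noTC-LPS. In M cells the LPS libraries were thus far above those at steady state, with no overlap. GM cells already held more at steady state, with 167 and 195 CPM in GM-TC and 177 and 174 CPM in GM-noTC. They reached 635 and 648 CPM in GM-TC-LPS and 689 and 606 CPM in GM-noTC-LPS. The log2 fold change was 3.98 ± 0.08 (SE) in M-TC (adjusted p = 1.08e-21) and 1.82 ± 0.07 in GM-TC (adjusted p = 2.44e-16). On noTC it was 3.998 ± 0.08 in M and 1.88 ± 0.07 in GM. The rise was larger in M cells than in GM cells by 2.16 ± 0.10 on TC (adjusted p = 1.14e-13) and by 2.11 ± 0.10 on noTC (adjusted p = 2.85e-13), the growth factor by LPS terms being -2.16 and -2.11.

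Bcl2a1d, which encodes A1-D, had the largest change of the 10. M-TC libraries held 1.87 and 1.75 CPM and M-noTC libraries 3.37 and 3.00 CPM, against 226 and 235 CPM in M-TC-LPS and 164 and 185 CPM in M-noTC-LPS. This was a rise of 126-fold on TC (log2 6.98 ± 0.11, adjusted p = 5.69e-23) and of 55.2-fold on noTC (5.79 ± 0.10, adjusted p = 1.71e-22). GM cells went from 65.9 and 71.9 CPM in GM-TC to 374 and 394 CPM in GM-TC-LPS. On noTC they went from 70.5 and 72.4 CPM to 405 and 354 CPM. The log2 fold changes in GM cells, 2.48 ± 0.07 on TC and 2.41 ± 0.07 on noTC, were smaller than those in M cells by 4.51 ± 0.15 (adjusted p = 3.98e-16) and 3.38 ± 0.13 (adjusted p = 7.95e-15), with growth factor by LPS terms of -4.51 and -3.38. When the share of the other groups' reads given above was subtracted from the noTC libraries at steady state, 26.04% and 29.6% of the M-noTC level of Bcl2a1d was removed, against 6.88% and 6.80% for Bcl2a1b there and at most 1.60% for any other member.

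The Bcl2a1 genes are near copies, and estimated counts divide reads that fit several of them. Of the 100-base windows of the transcripts, 54.7% of those of Bcl2a1d, 31.1% of Bcl2a1b, 43.5% of Bcl2a1a and 0% of Bcl2a1c were also in another copy, so that the split among them is uncertain. Exons of Gm29094 overlap 49.1% of the exon bases of Bcl2a1b on the same strand, and that gene held 0.520% to 2.71% of the count of Bcl2a1b. Summed over the 4 copies, the level was 41.8 ± 2.52 CPM (SD, n = 2) in M-TC and 899.6 ± 17.8 in M-TC-LPS. In M-noTC it was 30.2 ± 0.346 and in M-noTC-LPS 624 ± 31.4. GM-TC held 309.8 ± 27.0 and GM-TC-LPS 1223 ± 33.9, and GM-noTC held 306 ± 0.648 and GM-noTC-LPS 1221 ± 112. The sum rose by a log2 fold change of 4.43 ± 0.08 (TC) and 4.37 ± 0.08 (noTC) in M cells, and of 1.98 ± 0.07 (TC) and 1.996 ± 0.07 (noTC) in GM cells. The makeup of the sum differed among the cultures. Bcl2a1b made up 94.6% to 95.5% of it in M-TC and 57.5% to 59.2% in GM-TC. In the LPS groups its share was 69.8% to 70.1% in M-TC-LPS and 51.9% to 52.9% in GM-TC-LPS. Bcl2a1d went from 4.02% to 4.68% in M-TC to 25.5% to 25.7% in M-TC-LPS. Bcl2a1a, another copy, held 18.9% to 19.6% in GM-TC and 0.482% to 0.748% in M-TC.

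Mcl1 encodes a pro-survival protein with a short half-life. With TMM its group means lay between 428 and 637 CPM. M-TC held 641 and 634 CPM and M-TC-LPS 549 and 563 CPM. M-noTC held 519.6 and 537 CPM and M-noTC-LPS 425 and 431 CPM. Both M cultures were lower upon LPS with no overlap, by a log2 fold change of -0.20 ± 0.04 (adjusted p = 0.000427) and -0.31 ± 0.04 (adjusted p = 2.5e-06). Under library size alone the falls in M cells were larger. M-TC then went from 890 and 882 CPM to 434 and 438 CPM upon LPS. M-noTC went from 721 and 735 CPM to 357 and 355 CPM. GM-TC libraries were at 536 and 542 CPM and GM-TC-LPS libraries at 509.9 and 525 CPM. Neither GM culture passed the test, with -0.06 ± 0.04 on TC (adjusted p = 0.255) and -0.03 ± 0.04 on noTC (adjusted p = 0.503), and under library size alone both passed it, with -0.54 in each.

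Bcl2l1, the gene of BCL-XL, fell in GM cells and, on TC, was higher upon LPS in M cells with TMM but lower under library size alone. It fell in GM cells, from 80.9 and 88.7 CPM in GM-TC to 62.7 and 60.5 CPM in GM-TC-LPS. On noTC it fell from 95.4 and 96.1 CPM to 66.6 and 62.1 CPM. These were log2 fold changes of -0.46 ± 0.06 (adjusted p = 7.41e-07) and -0.57 ± 0.06 (adjusted p = 2.16e-08). In M-TC it was 64.8 and 64.6 CPM, and in M-TC-LPS 86.9 and 81.2 CPM. This was a rise of 0.38 ± 0.06 (adjusted p = 8.17e-06), which was -0.45 under library size alone. M-noTC libraries, at 100.3 and 97.2 CPM, and M-noTC-LPS libraries, at 97.0 and 95.3 CPM, did not pass the test (-0.04 ± 0.06, adjusted p = 0.564), and under library size alone it was called lower, at -0.76 (adjusted p = 1.21e-10). The growth factor by LPS term was -0.84 ± 0.09 on TC (adjusted p = 5.27e-08) and -0.54 ± 0.08 on noTC (adjusted p = 2.29e-05).

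Bcl2, the founding pro-survival gene of the family, was at 14.4 and 15.9 CPM in GM-TC and at 4.45 and 3.95 CPM in GM-TC-LPS. It was at 10.4 and 10.8 CPM in M-TC and at 5.07 and 5.35 CPM in M-TC-LPS. All LPS libraries lay below all steady state libraries. Bcl2 fell by 1.86 ± 0.13 on the log2 scale in GM-TC (adjusted p = 2.98e-11) and by 1.70 ± 0.12 on noTC. The M cells had a fall of 1.03 ± 0.13 on TC (log2 -1.03, adjusted p = 3.93e-07) and of 1.69 ± 0.12 on noTC (log2 -1.69). On TC the fall was larger in GM cells than in M cells (term -0.83 ± 0.19, adjusted p = 0.00139), and on noTC the term was -0.01 ± 0.18 (adjusted p = 0.985).

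Bcl2l11 encodes BIM, a BH3-only protein that binds all pro-survival members. At steady state GM cells held 65.4 and 58.7 CPM on TC and 50.4 and 55.6 CPM on noTC, and M cells 64.8 and 68.4 CPM on TC and 49.2 and 51.1 CPM on noTC. Upon LPS they were 175 and 168 CPM in GM-TC-LPS and 212 and 209 CPM in GM-noTC-LPS. M-TC-LPS held 204 and 201 CPM and M-noTC-LPS 169 and 174 CPM. All LPS libraries were above all steady state libraries. In GM cells the log2 fold change was 1.47 ± 0.06 on TC (adjusted p = 2.46e-15) and 1.99 ± 0.06 on noTC (adjusted p = 9.83e-18). In M cells it was 1.60 ± 0.06 on TC (adjusted p = 2.35e-16) and 1.77 ± 0.06 on noTC (adjusted p = 4.44e-17). In the same comparisons the summed Bcl2a1 level also rose.

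Pmaip1, the gene of the BH3-only protein NOXA, which binds MCL1 and A1, separated GM from M cells. In M-TC it was 20.7 and 18.4 CPM, and in M-TC-LPS 5.32 and 6.68 CPM. In M-noTC it was 18.02 and 17.8 CPM, and in M-noTC-LPS 5.03 and 6.64 CPM. It fell by 1.71 ± 0.13 on the log2 scale on TC (adjusted p = 1.1e-10) and by 1.61 ± 0.13 on noTC (adjusted p = 2.15e-10). GM-TC held 49.7 and 49.9 CPM and GM-TC-LPS 50.04 and 51.9 CPM, a difference that did not pass the test (0.03 ± 0.09, adjusted p = 0.76) and was called lower under library size alone (-0.45, adjusted p = 0.000122). On noTC, 45.8 and 46.3 CPM went to 68.7 and 55.8 CPM, a rise of 0.43 ± 0.09 (adjusted p = 0.000152) that was -0.074 under library size alone. The growth factor by LPS term was 1.75 ± 0.16 on TC (adjusted p = 1.24e-08) and 2.05 ± 0.16 on noTC (adjusted p = 7.5e-10).

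Bbc3 encodes PUMA, a BH3-only protein known as a p53 target. It was at 2.84 to 7.44 CPM throughout, and it fell in each culture upon LPS, with log2 fold changes in GM cells of -0.47 ± 0.17 on TC and -0.59 ± 0.17 on noTC (adjusted p = 0.0226 and 0.00493), and in M cells of -0.86 ± 0.16 and -0.55 ± 0.16 (adjusted p = 4.53e-05 and 0.00365). The call in GM-TC was lost without GM-TC replicate 1 (adjusted p = 0.0891), GM-TC replicate 2 (0.0535) or GM-TC-LPS replicate 2 (0.144), with DESeq2 (0.101) and with only the libraries of the comparison (0.0666). The call in GM-noTC was lost without GM-noTC replicate 1 (0.0972), and that in M-noTC without M-noTC-LPS replicate 1 (0.0552).

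Bax and Bak1 encode the effectors. Bak1 was at 54.4 to 55.5 CPM in M-TC and 91.6 to 97.4 CPM in M-TC-LPS, and for GM cells on TC at 73.9 to 74.1 CPM, then 92.3 to 92.9 CPM in GM-TC-LPS. It rose in all 4 cultures, by 0.78 ± 0.06 and 0.67 ± 0.06 on the log2 scale in M cells (TC and noTC) and by 0.32 ± 0.06 and 0.22 ± 0.06 in GM cells, and each of these turned negative under library size alone (-0.043, -0.051, -0.16 and -0.29). The rise relative to the median gene was larger in M than in GM cells (growth factor by LPS terms of -0.46 ± 0.08 on both dishes, adjusted p = 8.42e-05 and 7.8e-05), and on TC the term was -0.11 under library size alone (adjusted p = 0.271). Bax stayed between 45.6 and 60.9 CPM. It rose in M-TC, from 52.2 to 54.7 CPM to 60.8 to 60.9 CPM (0.19 ± 0.06, adjusted p = 0.0114), and this was -0.64 under library size alone and lost its call without M-TC replicate 2 (adjusted p = 0.089) or with only the libraries of the comparison (0.0563). The other cultures gave -0.05 to 0.11 and did not pass, and under library size alone each was called lower (-0.53 in GM-TC, -0.57 in GM-noTC and -0.61 in M-noTC). Ggnbp1, on the other strand, shares 25.5% of the exon bases of Bak1, and Gm45808 shares 12.2% of those of Bax, with at most 0.962% and 0.742% of the counts of these members.

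**Figure D2:**
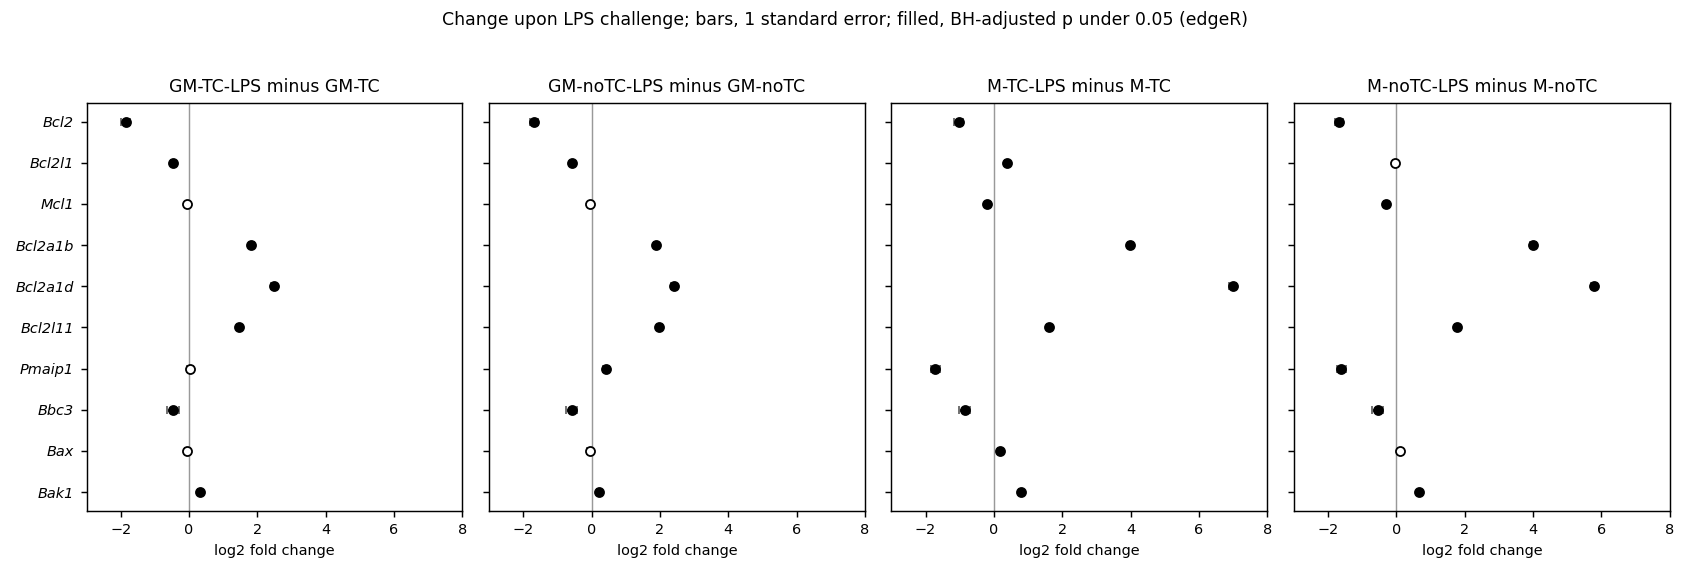
Log2 fold change upon LPS (LPS minus steady state) of the 10 genes in 4 panels, 1 per growth factor and dish, with bars of 1 SE and filled points for an adjusted p under 0.05 (edgeR). Bcl2a1b and Bcl2a1d lie further to the right in M cells (3.98 to 6.98) than in GM cells (1.82 to 2.48). Pmaip1 lies to the left of 0 in M cells, to the right in GM-noTC and close to 0 in GM-TC, where it did not pass the test. The small positive values of Bak1, of Bax in M cells, of Bcl2l1 in M-TC and of Pmaip1 in GM-TC (-0.45) and GM-noTC are negative when only library size is used.

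Levels of different genes can be compared per length, and CPM per kb of exon (union of exons in GENCODE vM21) were used for this. Within the pro-survival pool, made of Mcl1, Bcl2l1, Bcl2 and the summed Bcl2a1 genes, the leading gene depended on growth factor at steady state. In M-TC, Mcl1 made up 73.0% to 74.5% of the pool and Bcl2a1 19.4% to 20.9%. In GM-TC, Bcl2a1 made up 66.7% to 68.9% and Mcl1 27.4% to 29.7%. Upon LPS, Bcl2a1 led in all cultures, with 85.6% to 85.8% in M-TC-LPS, 83.3% to 84.1% in M-noTC-LPS and 89.5% to 90.3% in both GM groups. The pool itself was 252 to 254 CPM per kb in M-TC and 1253 to 1285 CPM per kb in M-TC-LPS. Bcl2l1 held at most 10.3% and Bcl2 at most 0.936% of the pool in any library with this length. These shares describe messenger RNA and not protein.

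In the BH3-only pool of Bcl2l11, Pmaip1 and Bbc3, Pmaip1 led in GM-TC, with 63.9% to 66.1%, and Bcl2l11 in M-TC-LPS, with 84.9% to 87.1%. M-TC was mixed, with 42.4% to 45.4% Bcl2l11, 35.9% to 39.9% Pmaip1 and 17.7% to 18.7% Bbc3. GM-TC-LPS held 50.6% to 52.2% Bcl2l11 and 44.0% to 45.9% Pmaip1. With the length of the longest coding transcript in place of the union of exons, Bcl2a1 still led in GM-TC (64.9% to 67.1%) and Mcl1 in M-TC (69.9% to 71.3%). Bcl2l1 then held 16.2% to 17.0% in M-noTC, above the summed Bcl2a1 genes there (15.8% to 15.9%). With that length the share of Bcl2l11 in M-TC was 52.7% to 55.6%. Of the 2 effectors, Bax held 48.5% to 51.4% of their sum per kb in GM-TC and 59.4% to 60.1% in M-TC, and 57.2% to 60.1% and 67.6% to 68.2% with the longest coding transcript.

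**Figure D3:**
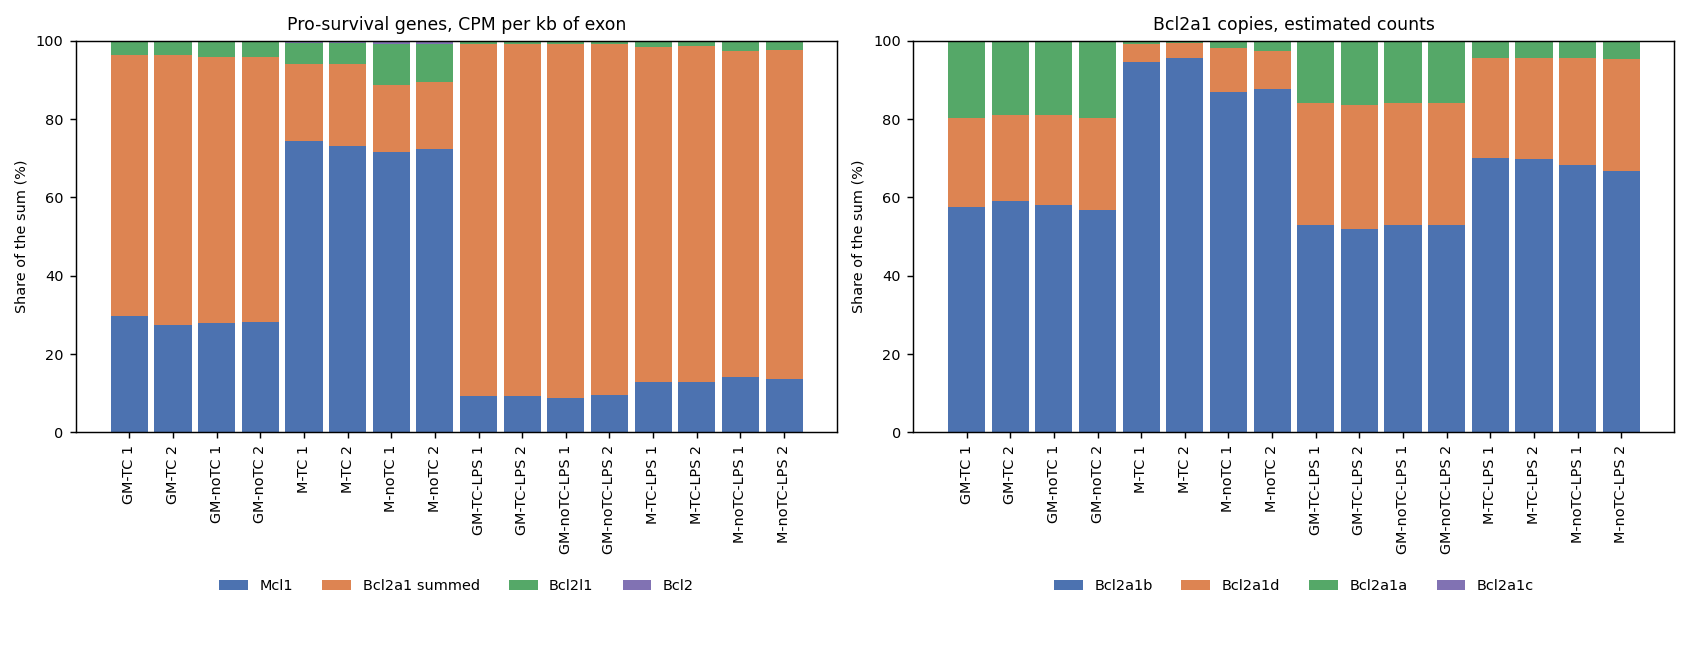
Left, share (%) of the summed pro-survival level (CPM per kb of exon) held by Mcl1, the summed Bcl2a1 genes, Bcl2l1 and Bcl2 in each of the 16 libraries. Right, share (%) of the summed Bcl2a1 estimated counts held by each copy. Mcl1 leads in the M libraries at steady state (71.6% to 74.5%) and the Bcl2a1 genes in all others, and Bcl2a1b holds 94.6% to 95.5% of the Bcl2a1 sum in M-TC.

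Comparing GM with M cells, the Bcl2a1 genes and Pmaip1 were the members with large differences. On TC at steady state 6 members were higher and 2 lower in GM cells (32.6% and 28.9% of all genes), and on noTC 5 were higher and 1 lower (31.4% and 30.7%). Upon LPS 2 were higher and 4 lower on TC (33.9% and 32.9%), and 5 higher and 3 lower on noTC (33.5% and 32.6%). Bcl2a1d was 37.9-fold higher in GM-TC than in M-TC (log2 5.24 ± 0.12, adjusted p = 7.22e-20) and 1.67-fold higher in GM-TC-LPS than in M-TC-LPS (0.74 ± 0.07, adjusted p = 2.05e-09). Bcl2a1b was 4.56-fold higher at steady state (2.19 ± 0.07, adjusted p = 7.09e-17), and upon LPS the TC groups overlapped (0.03 ± 0.06, adjusted p = 0.721). On noTC Bcl2a1b was higher in GM cells both at steady state and upon LPS, by 2.74 ± 0.08 and 0.62 ± 0.07 (adjusted p = 1.74e-18 and 2.43e-08). Summed over the copies, the difference was 2.89 ± 0.07 on TC and 3.34 ± 0.07 on noTC at steady state, and 0.44 ± 0.06 and 0.97 ± 0.06 upon LPS. Markers of neutrophils and dendritic cells were also higher in GM libraries, as given above, and their part in the difference was not tested.

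The difference in Pmaip1 was larger upon LPS. It was 2.55-fold higher in GM-TC than in M-TC (1.35 ± 0.10, adjusted p = 4.04e-11) and 8.56-fold higher in GM-TC-LPS than in M-TC-LPS (3.10 ± 0.12, adjusted p = 1.22e-15). On noTC the folds were 2.57 and 10.6 (adjusted p = 1.87e-11 and 1.43e-16). Bcl2l1 was higher in GM-TC than in M-TC (0.39 ± 0.06, but 0.078 with no call under library size alone) and lower in GM than in M cells upon LPS, by 0.45 ± 0.06 on TC and by 0.58 ± 0.06 on noTC, terms of -0.45 and -0.58. Bak1 was higher in GM cells at steady state, by 0.43 ± 0.06 on TC, where library size alone gave 0.12 with no call, and by 0.23 ± 0.06 on noTC, where library size alone gave -0.060. Bax was lower in GM cells upon LPS, at -0.38 ± 0.06 on TC (adjusted p = 2.77e-05) and -0.22 ± 0.06 on noTC (adjusted p = 0.0046). At steady state it did not pass on either dish in the main fit. On TC it was called lower in GM cells with DESeq2 (-0.19, adjusted p = 0.036), with its size factors in edgeR (-0.19, adjusted p = 0.013) and under library size alone (-0.45). On noTC it was called lower under library size alone (-0.34).

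Among the remaining members, Bcl2l11 was lower in GM-TC-LPS than in M-TC-LPS (-0.24 ± 0.06, adjusted p = 0.00107) and higher in GM-noTC-LPS than in M-noTC-LPS (0.30 ± 0.06, adjusted p = 0.000131). Mcl1 was lower in GM-TC than in M-TC (-0.24 ± 0.04) and higher in GM-noTC-LPS than in M-noTC-LPS (0.26 ± 0.04), and its growth factor by LPS term on noTC was 0.27 ± 0.06 (adjusted p = 0.00169). On TC that term did not pass in the main fit. It was called there with DESeq2 (0.15, adjusted p = 0.0414) and under library size alone (0.49, adjusted p = 1.06e-06). The Mcl1 difference on TC upon LPS, -0.10 ± 0.04 (adjusted p = 0.0469), lost its call without any 1 of the 4 libraries (adjusted p = 0.0572 to 0.226), under library size alone (0.154), without the filter (0.103) and with only the 4 libraries (0.148). Bcl2 was higher in GM-TC than in M-TC (0.52 ± 0.11, adjusted p = 0.000308, and 0.20 with no call under library size alone) and in GM-noTC than in M-noTC (0.26 ± 0.10, adjusted p = 0.0259), the latter being -0.034 under library size alone and without a call when GM-noTC replicate 1 (adjusted p = 0.324) or M-noTC replicate 2 (0.319) was left out, with DESeq2 (0.162) and without the filter (0.0544). Bbc3 was lower in GM-TC than in M-TC (-0.72 ± 0.15, adjusted p = 0.000289). On noTC it was lower by a smaller value (-0.35 ± 0.15, adjusted p = 0.0424), a call that was lost without GM-noTC replicate 2 (0.345), M-noTC replicate 1 (0.0717) or M-noTC replicate 2 (0.15), with DESeq2 (0.165) and with the replicate number as a block (0.0503).

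Fewer members passed the test for the dish, with higher counts in M than in GM cells. Comparing M-noTC with M-TC, 4 members were higher and 3 lower (16.1% and 11.1% of all genes), and comparing M-noTC-LPS with M-TC-LPS, 2 were higher and 4 lower (10.4% and 12.9%). In GM cells 1 was higher and 1 lower at steady state (4.69% and 2.85%), and 2 were higher and 0 lower upon LPS (2.08% and 0.727%). No member passed a fold of 2, as 1.39% of all genes did in GM cells, 0.296% in GM cells upon LPS, 3.45% in M cells and 1.81% in M cells upon LPS. Sums over marker lists also differed between the dishes. The heart muscle markers were higher on TC at steady state, and upon LPS their sum was 0.633 CPM or lower on both dishes. In GM cells at steady state the sums on TC and noTC (scaled to library size) were 3.54 to 3.88 and 6.57 to 7.30 CPM for mast cells and basophils, 14.9 to 19.0 and 23.6 to 28.1 CPM for neutrophils, and 52.6 to 54.7 and 61.6 to 62.9 CPM for dendritic cells. Of the markers tested in these lists, 1 of 3, 0 of 6 and 1 of 5 were called higher on noTC, and 0 lower. With TMM, the mean of Gata2 went from 2.27 to 5.15 CPM and that of Cpa3 from 0.524 to 0.511 CPM. Dpp4 went from 4.95 to 12.9 CPM, and Clec9a from 31.5 to 30.3 CPM. In M cells the summed macrophage markers, scaled likewise, went from 34515 to 35144 CPM on TC to 27856 to 29118 CPM on noTC. Of the 8 macrophage markers, 4 were called lower on noTC there and 1 higher. With TMM, the mean of Lyz2 went from 19350 to 15434 CPM and that of Itgam from 733 to 944 CPM. The part of these in the dish differences was not tested.

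On noTC dishes M cells held less Bcl2a1b and less Mcl1. Bcl2a1b was lower by 0.59 ± 0.08 on the log2 scale at steady state (adjusted p = 5.92e-06) and by 0.58 ± 0.07 upon LPS (adjusted p = 1.11e-06), terms of -0.59 and -0.58. The sum of the Bcl2a1 genes differed by -0.47 ± 0.08 and -0.53 ± 0.06. Mcl1 differed by -0.27 ± 0.04 (adjusted p = 7.13e-05) and by -0.38 ± 0.04 (adjusted p = 2.15e-06). In GM cells neither gene passed, with values of -0.04 to 0.01, and the difference between GM and M cells was itself called. For Bcl2a1b the dish by growth factor term was 0.55 ± 0.10 at steady state (adjusted p = 0.00114) and 0.59 ± 0.09 upon LPS (adjusted p = 0.000147). For Mcl1 it was 0.37 ± 0.06 upon LPS (adjusted p = 0.000478) and 0.23 ± 0.06 at steady state (adjusted p = 0.0173), and the latter call was lost without GM-noTC replicate 1 (adjusted p = 0.0585), GM-noTC replicate 2 (0.0747), M-TC replicate 1 (0.0737), M-TC replicate 2 (0.0577) or M-noTC replicate 1 (0.102).

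Bcl2l1 was higher on noTC in M cells, going from 64.8 and 64.6 CPM in M-TC to 100.3 and 97.2 CPM in M-noTC, a difference of 0.61 ± 0.06 (adjusted p = 6.46e-08). Upon LPS the difference was 0.19 ± 0.06 (adjusted p = 0.0233), a call lost without M-TC-LPS replicate 2 (0.177), M-noTC-LPS replicate 1 (0.127) or M-noTC-LPS replicate 2 (0.0636) or with DESeq2 (0.0576). The dish by LPS term was -0.42 ± 0.08 (adjusted p = 0.0023), and the dish by growth factor term at steady state was -0.44 ± 0.08 (adjusted p = 0.0012). Bcl2 was higher on noTC in M cells at steady state, with 18.2 and 15.98 against 10.4 and 10.8 CPM (0.68 ± 0.10, adjusted p = 2.93e-05), and upon LPS the groups overlapped (0.02 ± 0.15, adjusted p = 0.944). Its dish by LPS term in M, -0.66 ± 0.19 (adjusted p = 0.0244), lost its call under 6 of the 8 omissions of a library (adjusted p = 0.0577 to 0.126) and under library size alone (0.063) or with DESeq2 (0.0587), the omissions being those of M-TC replicates 1 and 2, M-noTC replicate 1, M-TC-LPS replicates 1 and 2 and M-noTC-LPS replicate 2. Bak1 was also higher on noTC in M cells, by 0.32 ± 0.06 (adjusted p = 0.000177) and upon LPS by 0.21 ± 0.06 (adjusted p = 0.00849), the latter without a call when M-TC-LPS replicate 2 (0.088) or M-noTC-LPS replicate 1 (0.0794) was left out.

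Bcl2a1d was 3.37 and 3.00 CPM in M-noTC and 1.87 and 1.75 CPM in M-TC, a difference of 0.80 ± 0.18 (adjusted p = 0.00242). After the subtraction it was 0.33 ± 0.20 (adjusted p = 0.251). Upon LPS it was lower on noTC (-0.40 ± 0.07, adjusted p = 0.000146). The dish by LPS term in M was -1.198 ± 0.20 (adjusted p = 0.000272) and -0.73 after the subtraction (adjusted p = 0.0302). The dish by growth factor term at steady state was -0.74 ± 0.20 (adjusted p = 0.0167), and it became -0.29 after the subtraction (adjusted p = 0.469) and lost its call without M-TC replicate 1 (0.061), M-TC replicate 2 (0.105) or M-noTC replicate 1 (0.0775). Upon LPS that term was 0.38 ± 0.09 (adjusted p = 0.0094), and the call was lost without GM-TC-LPS replicate 1 (0.0619), GM-noTC-LPS replicate 1 (0.0778) or M-noTC-LPS replicate 1 (0.0852) and under library size alone (0.0541).

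In GM cells Bcl2l11 passed the test for the dish in opposite directions at steady state and upon LPS. GM-noTC was lower than GM-TC at steady state, by 0.22 ± 0.06 (adjusted p = 0.0355), a term of -0.22 that lost its call without GM-TC replicate 1 (0.154) or GM-noTC replicate 1 (0.371), under library size alone (0.0524), with DESeq2 (0.0563) or its size factors (0.0531) and with only the libraries of the comparison (0.271). Upon LPS GM-noTC-LPS was higher than GM-TC-LPS (0.30 ± 0.06, adjusted p = 0.00436), a call lost without GM-TC-LPS replicate 2 (0.091) or GM-noTC-LPS replicate 1 (0.0546). The dish by LPS term in GM was 0.52 ± 0.09 (adjusted p = 0.0021). It was the 1 term of this kind called among the members in GM cells, where 0.783% of all genes passed, and it was called under every alternative and omission of a library that was run. The dish difference of Pmaip1 in GM cells also differed in sign, at -0.11 ± 0.09 and, upon LPS, 0.29 ± 0.09 (adjusted p = 0.517 and 0.0911), with a dish by LPS term of 0.40 ± 0.12 (adjusted p = 0.208) that passed without the filter on low counts (0.0166) or without GM-noTC-LPS replicate 2 (0.0401), as did the difference upon LPS (0.00631 and 0.0162). In M cells Bcl2l11 was lower on noTC at steady state and upon LPS (-0.41 ± 0.06, adjusted p = 3.03e-05, and -0.24 ± 0.06, adjusted p = 0.00466), the second call being lost without M-noTC-LPS replicate 1 (0.0615) and under library size alone (0.074). Upon LPS its dish difference was larger in GM than in M cells by 0.54 ± 0.08 (adjusted p = 0.000139). In GM cells Bcl2 was also higher on noTC, by 0.42 ± 0.10 at steady state (adjusted p = 0.0117) and by 0.58 ± 0.15 upon LPS (adjusted p = 0.0354). The first call was lost without GM-noTC replicate 1 (0.216), with DESeq2 (0.0613) and with only the 4 libraries (0.0913). The second was lost without any 1 of its 4 libraries (0.115 to 0.305), with DESeq2 (0.0752) and with only the 4 libraries (0.0626).

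**Figure D4:**
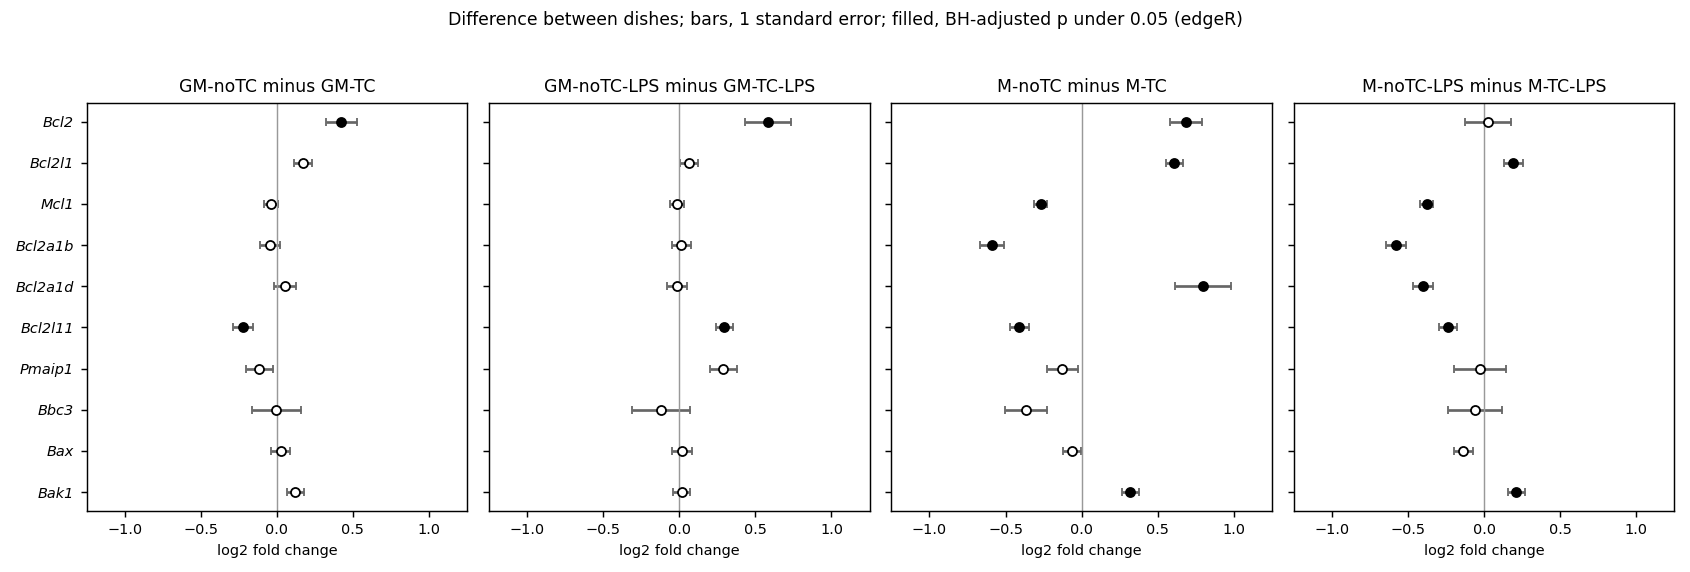
Log2 difference between dishes (noTC minus TC) of the 10 genes in GM and M cells at steady state and upon LPS, with bars of 1 SE and filled points for an adjusted p under 0.05 (edgeR). Filled points number 7 and 6 in M cells against 2 and 2 in GM cells, and Bcl2l11 in GM cells lies at -0.22 at steady state and at 0.30 upon LPS.

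Counted over the members, the growth factor by LPS term was called for 7 of 10 on TC (41.1% of all genes) and for 6 on noTC (36.2%). The dish by LPS term in M was called for 3 (10.6%). The dish by growth factor term was called for 4 at steady state (11.2%) and for 4 upon LPS (10.6%). For Bax the growth factor by LPS term on TC (-0.24 ± 0.09, adjusted p = 0.0422) was 0.11 under library size alone and lost its call under 7 of the 8 omissions of a library (0.061 to 0.223), all but that of GM-TC replicate 1, and with DESeq2 (0.106), without the filter (0.108) and with only the libraries of the comparison (0.118).

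The order of the levels over the 8 groups was a description of each gene. Bcl2a1b was highest in GM-noTC-LPS, GM-TC-LPS and M-TC-LPS, neighbours that did not pass the test against each other (adjusted p = 0.958 and 0.721), and lowest in M-noTC. Pmaip1 was highest in the 4 GM groups, whose neighbours in the order did not pass (adjusted p = 0.0911, 0.76 and 0.517), and lowest in the 2 M groups with LPS (adjusted p = 0.945 between them). Mcl1 was highest in M-TC and lowest in M-noTC-LPS, each set apart from its neighbour (adjusted p = 0.000427 and 2.52e-05), and the 6 groups between did not differ from their neighbours beyond the test (adjusted p = 0.359 to 0.942).

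Over the 8 group means, the genes outside the family with the most similar patterns were Fmnl2 and Cybb for Bcl2a1b (Pearson r = 0.998 and 0.996), Aldh1b1 and Gtf2f2 for Bcl2a1d (0.997 and 0.997), and Rpl35 and Stat5b for Bcl2l11 (0.997 and 0.996). For Pmaip1 they were Dhrs11 and Nedd9 (0.996 and 0.995), and for Bbc3 Usp35 and Zfp317 (0.996 and 0.990). Bcl2 was nearest to Ier5l and Ydjc (0.984 and 0.982), Bcl2l1 to Kcnn4 and Nop56 (0.944 and 0.936) and Mcl1 to Gtf2ird2 (0.961). Bax was nearest to Ndst2 and Ints13 (0.991 and 0.987), and Bak1 to Rrp9 and Psme3 (0.987 and 0.985). The 8 points share libraries and scaling, and these are the highest of many values.

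The other genes of the cell death pathways were read from 6 lists of 72 genes, of which 67 were tested. Upon LPS 25 rose and 28 fell in GM-TC, with 25 and 27 on noTC. For M cells the numbers were 31 and 25 on TC and 29 and 24 on noTC. Under library size alone the split in M-TC was 16 and 41, and in M-noTC 16 and 40. The median over the lists upon LPS was -0.11 for GM-TC and 0.04 for M-TC, beside -0.05 and -0.01 for all genes.

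Among other BCL2 family genes, of which 12 of 16 were tested, 4 rose and 5 fell in GM-TC and 3 rose and 5 fell in M-TC. Bcl2a1a rose by 1.71 on the log2 scale in GM-TC and by 7.13 in M-TC. Bcl2a1c was at 0 in both M-TC libraries and at 1.48 CPM on average in M-TC-LPS. Bmf, a BH3-only gene, fell in all 4 cultures, with mean levels of 26.4 CPM in M-TC and 0.458 CPM in M-TC-LPS and of 24.5 CPM in GM-TC and 3.85 CPM in GM-TC-LPS. It thus moved against Bcl2l11. Bcl2l12 fell in all 4, by 0.84 to 1.19.

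For the apoptosome and caspases, 5 of 13 rose and 5 fell in GM-TC, and 5 rose and 7 fell in M-TC. Apaf1, the apoptosome scaffold, rose by 0.97 in GM-TC and 2.05 in M-TC. Casp9, the caspase that the apoptosome activates, fell in all 4 cultures, with log2 fold changes of -2.35, -2.59, -2.30 and -2.17. Endog, a mitochondrial nuclease, fell in 3 of the 4. Of the 9 inhibitor of apoptosis genes, 5 rose and 4 fell in GM-TC and 7 rose and 2 fell in M-TC. Birc3 and Birc2, the genes of cIAP2 and cIAP1, rose by 2.32 and 1.76 in GM-TC and by 3.09 and 2.46 in M-TC. Birc5, the survivin gene of dividing cells, fell in all 4 (-0.76 to -1.02). Naip1, an inflammasome receptor of this family, fell by 2.04 in GM-TC.

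In the death receptor pathway 5 of 10 tested genes rose and 1 fell in GM-TC, and 6 rose and 1 fell in M-TC. Cflar, which encodes the caspase-8 inhibitor cFLIP, rose by 3.58 in GM-TC and 3.88 in M-TC, to mean levels of 1431 and 1749 CPM. Fas rose by 1.82 and 3.21. Fadd, the adaptor between the receptors and caspase-8, fell in M-TC (-1.79) and did not pass in GM-TC (-0.23). On noTC it was called lower in both GM (-0.41) and M cells (-1.35). Of the 12 genes of p53 and its targets 4 rose and 6 fell in both GM-TC and M-TC. Cdkn1a, the cell cycle inhibitor p21, rose by 1.55 and 4.67, and Sesn1 and Trp53inp1 fell by 3.40 and 2.48 in GM-TC and by 4.91 and 2.87 in M-TC. Eda2r rose in 3 of the 4, by 2.05 in GM-TC. Of the 11 regulators of BCL2 family proteins 2 rose and 7 fell in GM-TC and 6 rose and 4 fell in M-TC. Foxo3, a forkhead factor known to act on Bcl2l11 and Bbc3, fell by 2.41 in GM-TC and 3.28 in M-TC, in libraries where Bcl2l11 rose and Bbc3 fell. Usp9x, a deubiquitinase of MCL1, rose by 1.01 in GM-TC and 1.08 in M-TC. Ddit3, the stress factor CHOP, fell by 1.35 and 1.22.

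**Figure D5:**
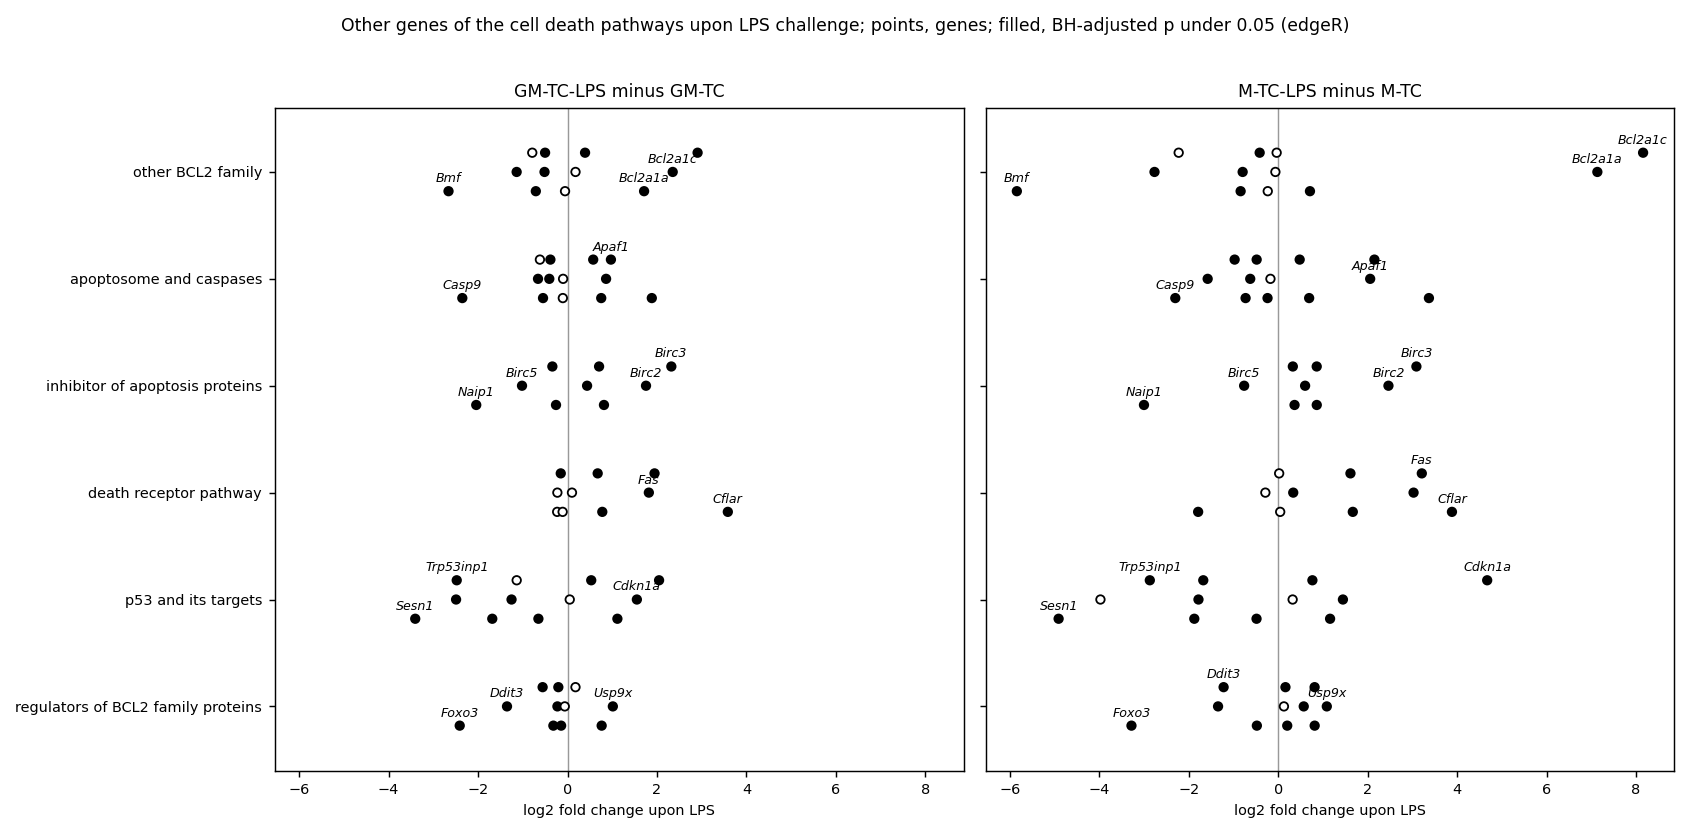
Log2 fold change upon LPS of the tested genes of 6 cell death lists in GM cells (left) and M cells (right) on TC dishes, with 1 point per gene, filled for an adjusted p under 0.05 (edgeR), spread vertically within a list for legibility. Cflar (3.58 and 3.88) and Birc3 (2.32 and 3.09) lie to the right and Sesn1 (-3.40 and -4.91) and Casp9 (-2.35 and -2.30) to the left in both, and the value of Bcl2a1c in M cells is fitted against libraries at 0.

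Between the growth factors, 35 of the 67 genes were higher and 13 lower in GM-TC than in M-TC (32.6% and 28.9% of all genes), and under library size alone the lower ones numbered 26. The list of p53 and its targets had 10 of 12 higher and 1 lower, with a median of 1.01 beside 0.018 for all genes, and with Eda2r at 4.24 and Phlda3, an AKT inhibitor, at 3.60. Trp53 itself was called lower in GM cells in 3 of the 4 comparisons, and Sesn1 in 2. Their mean log2 differences over the 4 were -0.25 and -0.52. Bid, a BH3-only gene, was lower in all 4 comparisons (-0.77 to -1.14), as was Casp2 (-0.49 to -1.29). Ripk3, a kinase of necroptosis, was higher in all 4 (1.11 to 1.95), and so was Tnfrsf10b, a TRAIL receptor (1.33 to 2.17). Between the dishes, 3 were higher and 2 lower in GM cells (4.69% and 2.85% of all genes), 2 and 1 in GM cells upon LPS (2.08% and 0.727%), 12 and 6 in M cells (16.1% and 11.1%), and 9 and 10 in M cells upon LPS (10.4% and 12.9%). Bnip3, a mitophagy gene known to be induced by hypoxia, was higher on noTC in GM cells at steady state and upon LPS (1.05 and 1.27). Ripk3 (0.61 and 0.65) and Birc5 (0.75 and 0.61) were higher on noTC in M cells, and Birc3 was lower (-0.44 and -0.28).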

How the data were processed

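RNA-seq was done on 16 libraries, 2 per group, and same-numbered libraries were not stated to share a mouse. The authors deposited a matrix of expected counts per gene, which per the methods were made after read trimming with fastp 0.18.0, removal of rRNA reads with Bowtie2 2.2.8, alignment with HISAT2 and quantification with RSEM; the genome build is not given in the sources used here. Libraries held 17527806 to 31458368 counts, 3 counts being 0.0954 to 0.171 CPM, and 6.56% to 8.19% of values were not whole. Counts were rounded and tested in R 4.3.3 with edgeR 4.0.16 (filterByExpr, TMM, quasi-likelihood test over 8 groups, no block), with Benjamini-Hochberg adjustment over 12514 genes and a threshold of 0.05. The SE was the size of the log2 fold change over the square root of F. In this design an exact permutation test of 2 against 2 libraries cannot go below 0.333. The p-values measure the spread between libraries of the same group, estimated jointly over the 8 groups, with a biological coefficient of variation of 4.75%. The paper calls the 2 libraries of a group biological replicates. The mouse behind each library is not given, so that this spread may not cover that between mice. There were 12 comparisons and 6 interactions, the difference of 2 log2 fold changes. DESeq2 1.42.0, other scalings and filters, the omission of each library and a subtraction of other groups' reads were alternatives. Levels and differences were TMM scaled unless stated.

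The members and lists were chosen with earlier results of these data known. The genes named from each list were up to 2 per direction with the largest mean log2 fold change among those called in at least 2 of the 4 comparisons of LPS, dish or growth factor, and for each member the 2 genes with the highest Pearson r were named; 2 genes that these rules chose are not reported here. The fit was tested on simulated data in which few genes changed, in a single group. Such data cannot test the scaling where many genes change, as upon LPS. No cell type marker or list was tested as a set. Gene coordinates were from GENCODE vM21 (GRCm38) by gene ID, which matched 22253 of 22287 IDs, and promoters from RefSeq (GRCm38.p6). Strand was not stated for the libraries, so that overlapping and antisense genes cannot be told apart.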

Additional observations from a re-analysis of the deposited data

Results flagged for a closer look

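The log2 change of a member differed between 2 sets of cells or dishes, by a test of the difference itself (edgeR, adjusted p under 0.05), in 25 cases. For LPS, the change in GM minus the change in M was -0.83 for Bcl2 on TC, -2.16 (TC) and -2.11 (noTC) for Bcl2a1b, -4.51 and -3.38 for Bcl2a1d, -0.84 and -0.54 for Bcl2l1, 1.75 and 2.05 for Pmaip1, and -0.46 and -0.46 for Bak1. It was 0.27 for Mcl1 on noTC and -0.24 for Bax on TC. For LPS on noTC minus LPS on TC, the values were 0.52 for Bcl2l11 in GM cells, and -0.66 for Bcl2, -1.198 for Bcl2a1d and -0.42 for Bcl2l1 in M cells. For the dish difference in GM minus that in M, the values at steady state were 0.55 for Bcl2a1b, -0.74 for Bcl2a1d, -0.44 for Bcl2l1 and 0.23 for Mcl1, and upon LPS 0.59 for Bcl2a1b, 0.38 for Bcl2a1d, 0.37 for Mcl1 and 0.54 for Bcl2l11. Groups of 2 libraries were too small to look for outlying libraries. The GM-TC libraries were far apart for some genes, as for Huwe1 (189 and 306 CPM) and Birc6 (156 and 250 CPM). In GM-noTC these were at 294 and 303 CPM and at 234 and 235 CPM. For others the GM-TC libraries were close, as for Tnfrsf1a (94.3 and 94.5 CPM). The part of this spread in the dish results of GM cells was not tested.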

How the results depend on the processing

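Direction was kept by the members' differences that passed the test under every alternative except library size alone, where the median gene moved by -0.53, -0.54, -0.83 and -0.73 on the log2 scale upon LPS (GM-TC, GM-noTC, M-TC, M-noTC) and by -0.29 between growth factors on both dishes at steady state. There values turned in sign, some of which had not passed the test (Pmaip1 in GM-TC, Bax in M-noTC and Bcl2l11 between growth factors on noTC). The change upon LPS turned to -0.45 (GM-TC) and -0.074 (GM-noTC) for Pmaip1, to -0.16, -0.29, -0.043 and -0.051 for Bak1 in the 4 cultures in the same order, to -0.45 for Bcl2l1 in M-TC, and to -0.64 (M-TC) and -0.61 (M-noTC) for Bax. The growth factor difference on noTC turned to -0.034 for Bcl2, -0.21 for Bcl2l11 and -0.060 for Bak1, and the growth factor by LPS term of Bax on TC to 0.11. Of the 180 values of single members, 169 kept their direction and side of the threshold with DESeq2, 177 with DESeq2 size factors, 174 without the filter, 170 with only the libraries of the comparison, 178 after the subtraction and 180 without rounding.

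The number of members called for the dish in GM cells, 2, became 1 with DESeq2 size factors or library size alone and 0 with DESeq2 or only the 4 libraries. Upon LPS, 2 became 1 with DESeq2 or only the 4 libraries. The dish by LPS count in GM, 1, became 2 without the filter. In the lists of death genes library size alone gave, upon LPS, 41 lower in place of 27 in GM-noTC, 16 higher and 41 lower in place of 31 and 25 in M-TC, and 16 higher and 40 lower in place of 29 and 24 in M-noTC. For the dish it gave 1 lower in place of 2 in GM, 1 higher in place of 2 in GM-LPS, and 17 higher and 5 lower in place of 9 and 10 in M-LPS. For the growth factor it gave 26 lower in place of 13 on TC and 23 lower in place of 13 on noTC. Beyond the scaling itself, the cause was not tested.

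With each library left out in turn, the lone library being assumed to vary like the others, the members called for the dish ranged from 0 to 3 in GM (0 without GM-noTC replicate 1), 0 to 2 in GM-LPS (0 without GM-TC-LPS replicate 2 or GM-noTC-LPS replicate 1), 7 to 7 in M and 3 to 6 in M-LPS (3 without M-noTC-LPS replicate 1). Upon LPS they ranged from 6 to 7 in GM-TC, 7 to 8 in GM-noTC, 9 to 10 in M-TC and 7 to 8 in M-noTC. Between growth factors they ranged from 8 to 9 on TC, 5 to 5 on TC upon LPS, 4 to 5 on noTC and 8 to 8 on noTC upon LPS. The counts for interactions ranged from 6 to 7 for growth factor by LPS on each dish, 1 to 2 for dish by LPS in GM (2 without GM-noTC-LPS replicate 2), 2 to 3 for dish by LPS in M, 2 to 5 for dish by growth factor at steady state (2 without M-TC replicate 1, M-TC replicate 2 or M-noTC replicate 1) and 3 to 4 upon LPS. The summed Bcl2a1 change upon LPS ranged from 1.91 to 2.07 in GM-TC and from 4.37 to 4.49 in M-TC.

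The replicate number as a block changed 1 call of a member, Bbc3 between growth factors on noTC (adjusted p = 0.0503), and same-numbered libraries did not deviate together (correlations of -0.0636 to 0.0200 over 12514 genes). Members with low counts, Bbc3, Bcl2 and, in M cells, Pmaip1 and Bcl2a1d, had standard errors of up to 0.26, 0.21, 0.20 and 0.20, against at most 0.10 for each other member.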

Other observations

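Bcl2a1a, a copy outside the 10 members whose upstream window is identical to that of Bcl2a1b, was far lower than Bcl2a1b in M cells at steady state. It was at 0.299 and 0.210 CPM in M-TC and at 0.465 and 0.716 CPM in M-noTC, and at 57.0 and 62.0 CPM in GM-TC and 57.4 and 59.3 CPM in GM-noTC. Upon LPS it was at 37.8 and 39.7 CPM in M-TC-LPS and 26.4 and 29.1 CPM in M-noTC-LPS, below the unchallenged GM libraries, and at 188 and 202 CPM in GM-TC-LPS. Bcl2a1b in M-TC-LPS, at 622 and 636 CPM, was in contrast above the unchallenged GM libraries (167 to 195 CPM). The reads of the copies are partly shared, as given above.

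Cdkn1a, which encodes p21, had a mean of 67.7 CPM in M-TC and 114 CPM in M-noTC against 178 and 215 CPM in the GM cultures. Upon LPS the order of GM and M cells was the other way round, with 1725 and 1532 CPM in the M groups against 523 and 589 CPM in the GM groups.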
